A study of Drosophila melanogaster with 12 samples.

Results

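Drosophila BG3 cells in which cohesin had been knocked down were compared between an early and a later harvest. BG3 (labelled ML-DmBG3) is a cell line derived from the larval central nervous system. The 8 arrays of RNAi-treated cells, of 12 arrays in all, were taken by their treatment labels: 4 carried RNA of Rad21 RNAi cells and 4 carried RNA of Nipped-B RNAi cells. For each target, 1 array was from day 4 and 1 from day 6, both after 10 µg of double-stranded RNA (dsRNA), and 2 were from day 3, after 40 µg. The other 4 arrays were of mock cells, which received 0 µg of dsRNA, 1 at day 4, 1 at day 6 and 2 at day 3. Days 4 and 6 are called the later days here. The later days had less dsRNA in every RNAi sample, so time and dsRNA amount cannot be told apart within the RNAi cells. Every RNAi array is of one cell line and no array carries a control dsRNA. The labels call the arrays biological replicates, but nothing says which cultures were set up separately, so p-values measure the spread between these arrays.

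Cohesin is a ring-shaped protein complex that holds sister chromatids together from DNA replication until anaphase. Rad21 is the subunit that closes the ring, and Nipped-B is the factor that loads the ring onto chromosomes. Cohesin also binds many transcribed genes, and reducing it is known to change the transcription of a limited set of them. RNAi removes the messenger RNA first, and the protein made from it is lost over the following days. None of the arrays measured either knockdown here. The Nipped-B probe set stayed at background, at log2 2.29 or below on all 12 arrays, and Rad21 was not analysed here.

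Values are log2 expression values of probe sets, the groups of short probes that report 1 transcript on the array, and probe sets without signal sit near 2 to 3. Of 18769 probe sets that are not array controls, 7304 reached log2 4 on at least 2 of the 8 RNAi arrays and were tested, among them 6362 that name a single gene (5894 genes). The 8 RNAi arrays were alike in overall signal, with 7199 to 7261 probe sets at log2 4 or above and a median of the tested probe sets between 9.38 and 9.42. Day 3 replicates differed with an SD across probe sets of 0.177 for Rad21 and 0.223 for Nipped-B, while day 6 and day 4 differed by 0.293 and 0.444. Markers of the nervous system were detected only in part. The neuronal gene elav, an RNA-binding protein, was expressed (8.71 and 9.29 with Rad21 RNAi and 8.19 and 9.43 with Nipped-B RNAi at days 4 and 6, against 9.03 and 8.72 and 8.72 and 8.70 at day 3). Yet 20 of 26 neuron markers with a probe set stayed under the limit for testing, with nSyb, brp, Syn and ChAT at background, and the glial gene repo stood only at 4.22 to 4.82 on the later arrays, against 4.26 to 4.48 at day 3. The blood cell genes srp and Col4a1 were among the strongest signals, at 12.96 or above on every RNAi array, whereas Hml and NimC1, defining haemocyte genes, were at background.

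Of the tested probe sets, 27.1% differed between the later days and day 3 in RNAi cells (knockdown cells), and most of these differences were small. With the knockdown target as a block, 869 probe sets (11.9% of those tested) were higher at the later days and 1113 (15.2%) were lower, at an adjusted p of at most 0.1 (limma, Benjamini-Hochberg over 7304 probe sets). This is the threshold behind every "rose", "fell" and "called" below. In genes, 718 rose (12.2%) and 925 fell (15.7%). The median size was 1.27-fold among those that rose and 1.28-fold among those that fell. A change of at least 2-fold was seen in 102 probe sets that rose and 122 that fell, and one of at least 4-fold in 25 and 36. All 4 later arrays lay outside the range of the 4 day 3 arrays for 1629 of the 1982 called probe sets. The same was true of 810 (11.1%, above) and 1119 (15.3%, below) of all tested probe sets. Counts depended on the day 3 arrays: 508 rose and 713 fell without Nipped-B replicate 2, 572 and 664 without Rad21 replicate 1, 571 and 707 without Rad21 replicate 2, and 646 and 735 without Nipped-B replicate 1. Averaging both targets within each replicate number left 348 and 384.

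**Figure D1:**
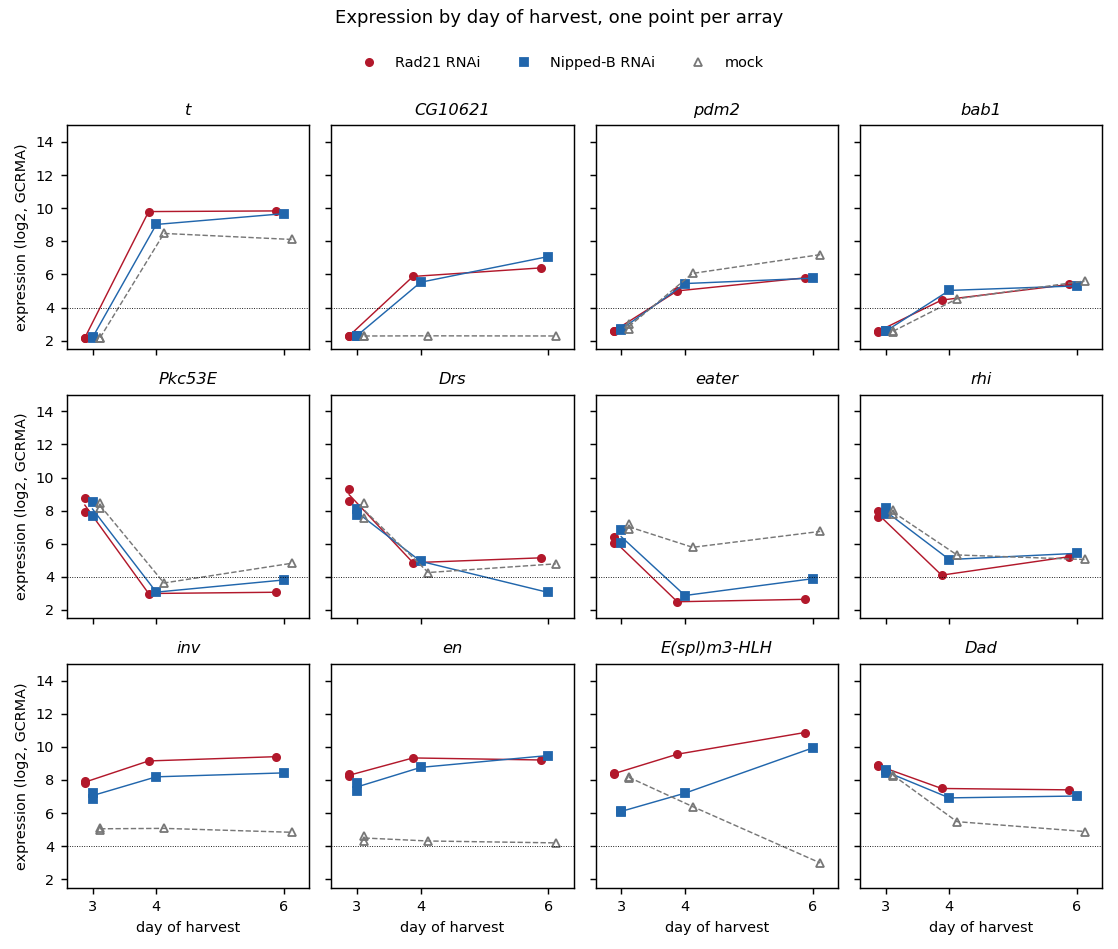
Log2 expression (vertical axis) by day of harvest (3, 4 and 6, horizontal axis) of 12 genes, with 1 point per array for Rad21 RNAi, Nipped-B RNAi and mock cells, lines through the day 3 mean and the single arrays of days 4 and 6, and a dotted line at log2 4. The gene t is near 2.2 on every day 3 array and at 8.11 or above on every later array, whereas CG10621 leaves background only on the later RNAi arrays.

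Among the genes that rose, t (tan) stood first. It encodes the hydrolase that frees dopamine from its beta-alanine conjugate. The t value was 9.80 and 9.84 with Rad21 RNAi and 9.02 and 9.67 with Nipped-B RNAi at days 4 and 6, against 2.18 and 2.18 with Rad21 RNAi and 2.19 and 2.19 with Nipped-B RNAi at day 3. The probe set was thus at background on every day 3 array and clearly expressed on every later one, a change of 7.40 log2 units (SE 0.16, limma adjusted p 7.49e-07), or 5.58 when values under 4 are set to 4. Mock cells did the same, with 8.48 and 8.11 at days 4 and 6, against 2.18 and 2.19 at day 3. The POU-domain transcription factor gene pdm2 also came up out of background, at 5.01 and 5.79 with Rad21 RNAi and 5.45 and 5.78 with Nipped-B RNAi at days 4 and 6, against 2.57 and 2.58 with Rad21 RNAi and 2.72 and 2.64 with Nipped-B RNAi at day 3, and so did bab1, a transcription factor gene of limb and ovary patterning, at 4.45 to 5.39 on the later arrays, against 2.55 to 2.57 at day 3. With that floor their changes of 2.88 and 2.48 came to 1.51 and 1.05. Both had the same pattern in mock cells, in which pdm2 was at 6.06 and 7.20 at days 4 and 6, against 3.0 and 2.72 at day 3.

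CG10621 differed from these 3 genes in that it was never detected in mock cells. It had 5.88 and 6.39 with Rad21 RNAi and 5.53 and 7.08 with Nipped-B RNAi at days 4 and 6, against 2.29 and 2.30 with Rad21 RNAi and 2.29 and 2.30 with Nipped-B RNAi at day 3. The change was 3.92 log2 units (SE 0.31, adjusted p 0.000347), or 2.22 with values under 4 set to 4, while mock arrays stayed between 2.26 and 2.31. CG18557 had 8.19 and 6.83 with Rad21 RNAi and 10.11 and 8.55 with Nipped-B RNAi at days 4 and 6, against 4.19 and 4.54 with Rad21 RNAi and 4.04 and 3.91 with Nipped-B RNAi at day 3, a rise of 4.25 (SE 0.55, adjusted p 0.00302), with 3.36 in mock cells. Glutactin (Glt), a glycoprotein of basement membranes, had 8.68 and 10.11 with Rad21 RNAi and 8.58 and 9.48 with Nipped-B RNAi at days 4 and 6, against 6.94 and 6.79 with Rad21 RNAi and 6.14 and 5.53 with Nipped-B RNAi at day 3, a rise of 2.86 against 5.31 in mock cells. The mucin-related gene Mur18B rose by 2.58, CG32037 by 2.5, CG42342 by 2.22 and cu, the curled gene of wing posture, by 2.10. Gap junction gene ogre, an innexin of the brain, rose by 1.75 (adjusted p 0.00848), and EndoU, an endoribonuclease, by 1.74. The other large increases were those of CG1850, CG32512, CG10859, CG7737, CG30154 and HisT, between 1.69 and 1.95.

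For 2 of the largest increases, the day 3 replicates themselves lay far apart. CG34330 had 10.26 and 10.34 (Rad21) and 12.21 and 11.17 (Nipped-B) later, against 8.03 and 5.66 (Rad21) and 9.45 and 6.86 (Nipped-B) at day 3. Sirup, an assembly factor of succinate dehydrogenase, had 13.95 and 14.61 and 15.01 and 14.76 later, against 11.998 and 9.5 and 13.47 and 10.34 at day 3. In both genes replicate 2 was far below replicate 1 for either target, and in mock cells as well, where day 3 values were 10.32 and 7.80 for CG34330 and 14.39 and 12.04 for Sirup. Their changes of 3.5 (adjusted p 0.0115) and 3.25 (adjusted p 0.0224) had the largest standard errors of the top 20, at 0.66 and 0.74.

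Among the genes that fell, Pkc53E, a protein kinase C gene, changed most. It had 2.99 and 3.07 with Rad21 RNAi and 3.08 and 3.81 with Nipped-B RNAi at days 4 and 6, against 8.77 and 7.90 with Rad21 RNAi and 8.52 and 7.68 with Nipped-B RNAi at day 3. All later values were under 4 and all day 3 values were above 7, a change of -4.98 log2 units (SE 0.29, adjusted p 9.28e-05), and of -4.21 with values under 4 set to 4. In mock cells Pkc53E had 3.63 and 4.82 at days 4 and 6, against 8.48 and 8.13 at day 3. The antifungal peptide gene Drosomycin (Drs) had 4.86 and 5.15 with Rad21 RNAi and 4.94 and 3.06 with Nipped-B RNAi at days 4 and 6, against 9.31 and 8.61 with Rad21 RNAi and 8.09 and 7.71 with Nipped-B RNAi at day 3, a change of -3.93 (SE 0.38, adjusted p 0.000782). CG9682 and CG9338 changed by -3.67 and -3.65, and CG9338 by -2.43 with that floor.

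Several genes of secreted or surface proteins stood among the 20 largest decreases. The BMP type II receptor gene wit (wishful thinking) had 4.45 and 3.66 with Rad21 RNAi and 3.66 and 4.47 with Nipped-B RNAi at days 4 and 6, against 8.17 and 8.10 with Rad21 RNAi and 7.24 and 7.28 with Nipped-B RNAi at day 3, a change of -3.64 (SE 0.27, adjusted p 0.00026), and -2.14 in mock cells, where its day 3 level was lower (4.61 and 4.79). The later mock values of wit were at background (2.48 and 2.64). Its difference from mock was -1.50 (limma adjusted p 0.139), or -2.77 (adjusted p 0.0077) with values under 4 set to 4. The haemocyte phagocytosis receptor gene eater had 2.5 and 2.64 with Rad21 RNAi and 2.87 and 3.89 with Nipped-B RNAi at days 4 and 6, against 6.39 and 6.03 with Rad21 RNAi and 6.82 and 6.04 with Nipped-B RNAi at day 3, so that it was under 4 on every later RNAi array, whereas mock cells kept 5.78 and 6.74 at the later days, against 7.18 and 6.86 at day 3. Pgant2, a glycosyltransferase that starts mucin-type O-linked sugars, had 2.69 to 2.98 on the later arrays, against 6.18 to 6.36 at day 3 (change -3.49, adjusted p 8.45e-06, or -2.30 with values under 4 set to 4). Idgf3, a chitinase-like growth factor, changed by -3.22, the lysosomal mannosidase LManII by -2.62, the matrix metalloprotease AdamTS-A by -2.57 and the cuticle protein gene Cpr51A by -2.45. All later RNAi values of AdamTS-A were under 4, and its change came to -1.78 with values under 4 set to 4.

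The other large decreases included regulators. The HP1 homologue rhino (rhi), which marks the clusters that give piRNAs, small RNAs that silence transposons in the germline, had 4.10 and 5.22 with Rad21 RNAi and 5.05 and 5.42 with Nipped-B RNAi at days 4 and 6, against 8.0 and 7.60 with Rad21 RNAi and 8.13 and 7.79 with Nipped-B RNAi at day 3, a change of -2.93 (adjusted p 0.000481). Neverland (nvd), an oxygenase of ecdysone synthesis, changed by -2.93 (adjusted p 0.00486). The ubiquitin ligase gene Trim9 changed by -3.25, the leucine-zipper factor gene Atf3 by -2.32 and the POU-domain gene pdm3 by -2.24. With values under 4 set to 4, Trim9 changed by -1.60 and pdm3 by -0.83. CG18404, CG18249, CG32115 and CG13086 changed by -2.78, -2.77, -2.68 and -2.36. With that floor they came to -1.72, -1.32, -2.30 and -2.25. For rhi, nvd and Trim9, mock cells changed by -2.72, -3.15 and -3.44.

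Engrailed (en) and invected (inv), neighbouring homeodomain genes that specify posterior compartments, both rose further between day 3 and the later days of RNAi. The value of en was 9.33 and 9.20 with Rad21 RNAi and 8.76 and 9.47 with Nipped-B RNAi at days 4 and 6, against 8.22 and 8.34 with Rad21 RNAi and 7.31 and 7.84 with Nipped-B RNAi at day 3, with 4.31 and 4.20 at days 4 and 6, against 4.34 and 4.64 at day 3 in mock cells. The value of inv was 9.15 and 9.40 with Rad21 RNAi and 8.19 and 8.42 with Nipped-B RNAi at days 4 and 6, against 7.82 and 7.91 with Rad21 RNAi and 6.88 and 7.23 with Nipped-B RNAi at day 3, with 5.07 and 4.84 at days 4 and 6, against 4.98 and 5.12 at day 3 in mock cells. In both genes the 4 later RNAi arrays lay above the 4 day 3 arrays, and all 8 lay above the 4 mock arrays. The rise was 1.26 log2 units for en (SE 0.20, adjusted p 0.00615) and 1.33 for inv (SE 0.11, adjusted p 0.000408), against -0.24 and -0.09 in mock cells.

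The E(spl)-C gene cluster (Enhancer of split) holds Notch target genes, most of them basic helix-loop-helix repressors of neural fate. Of 10 members matched to a probe set here, 5 were tested (E(spl)mgamma-HLH and E(spl)m8-HLH were not analysed here): 3 rose and none fell, beside 12.2% and 15.7% of all genes. Both others had positive values, of which E(spl)malpha-BFM reached 4 only on its day 6 arrays. Of the 5 untested members, E(spl)m2-BFM reached 5.39 on 1 array, while E(spl)m6-BFM, Kaz-m1, E(spl)m5-HLH as well as E(spl)m4-BFM were never at 4 or above. E(spl)m3-HLH had 9.55 and 10.86 with Rad21 RNAi and 7.20 and 9.93 with Nipped-B RNAi at days 4 and 6, against 8.41 and 8.33 with Rad21 RNAi and 6.14 and 6.05 with Nipped-B RNAi at day 3, with 6.39 and 2.99 at days 4 and 6, against 8.21 and 8.11 at day 3 in mock cells. The groups overlapped, since the Nipped-B array of day 4 was below both Rad21 arrays of day 3, but within each target the later arrays were higher. The rise was 2.15 (SE 0.56, adjusted p 0.036), and the adjusted p was 0.101 without Nipped-B replicate 2. E(spl)mbeta-HLH had 6.10 and 7.0 with Rad21 RNAi and 4.89 and 5.96 with Nipped-B RNAi at days 4 and 6, against 5.53 and 5.66 with Rad21 RNAi and 4.10 and 4.24 with Nipped-B RNAi at day 3, a rise of 1.11 (SE 0.27, adjusted p 0.0292).

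E(spl)m7-HLH had 8.51 and 9.61 with Rad21 RNAi and 5.65 and 8.41 with Nipped-B RNAi at days 4 and 6, against 8.03 and 8.01 with Rad21 RNAi and 4.62 and 5.15 with Nipped-B RNAi at day 3, a rise of 1.59 (SE 0.58, adjusted p 0.0976). Its adjusted p was 0.137 with the replicate number as a block, and it was 0.221 and 0.193 without Nipped-B replicate 1 or 2, and 0.161, 0.155 and 0.192 without Rad21 replicate 1, 2 or 4. E(spl)mdelta-HLH had 7.82 and 9.02 with Rad21 RNAi and 4.75 and 8.34 with Nipped-B RNAi at days 4 and 6, against 7.47 and 7.22 with Rad21 RNAi and 4.04 and 3.84 with Nipped-B RNAi at day 3, a difference of 1.84 (SE 0.74, adjusted p 0.122), and E(spl)malpha-BFM a difference of 0.75 (adjusted p 0.338). All 5 tested members had higher day 3 values with Rad21 RNAi than with Nipped-B RNAi. In mock cells 2 of the 5 members fell and 0 rose, while 21.4% of all genes fell there. The 2 were E(spl)m3-HLH and also E(spl)m7-HLH, at -3.47 and -2.46 (adjusted p 0.0472 and 0.0418).

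Genes of DNA replication fell together, each by little. Of 38 tested genes of the replication machinery, 25 fell and 1 rose, beside 15.7% and 12.2% of all genes. Their median change was -0.25, beside -0.03 over all 5894 genes. Prim1, the catalytic subunit of primase, had 7.71 to 8.13 on the later arrays, against 8.43 to 8.58 at day 3, a change of -0.63 (SE 0.10, adjusted p 0.00737). The polymerase genes PolA1 and PolE1 changed by -0.59 and -0.57, and the licensing factor gene dup by -0.52. Mock cells showed the same direction at a larger size, with 31 of 38 genes called lower (21.4% of all genes) and a median of -0.62. The change was smaller in size in RNAi cells than in mock cells for 35 of the 38, as it was for 4294 of all 5894 genes. No member passed the test of the difference between RNAi and mock cells.

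In other lists of the cell cycle and chromosome structure, part of the members fell, beside 15.7% of all genes. Of 6 condensin genes 4 fell and 0 rose (median -0.28), with glu at -0.38 and SMC2 at -0.32. Of 9 cohesin and cohesion genes, 6 fell and 1 rose (median -0.28). The cohesin release factor gene wapl had 9.20 to 9.29 on the later arrays, against 9.68 to 9.88 at day 3 (change -0.55, SE 0.07, adjusted p 0.00233), and Mau2, the partner of Nipped-B in loading, changed by -0.40 (adjusted p 0.0195). SMC1, a core subunit named here after its value was seen, changed by -0.25 (adjusted p 0.0264). The 1 that rose was c(2)M, a meiotic relative of Rad21, at 1.57 (adjusted p 0.0505, and 0.139, 0.115 and 0.104 without Nipped-B replicate 2, Rad21 replicate 2 or Rad21 replicate 4). In mock cells 7 of the 9 fell and 1 rose, and c(2)M changed by 2.68. Of 45 mitosis genes 10 fell (22.2%) and 1 rose, among those that fell borr of the chromosomal passenger complex (-0.55) and Spc105R and cmet of the kinetochore (-0.49 and -0.48). Of 24 cyclin, Cdk and E2F genes 5 fell (20.8%) and 1 rose, so that both lists lay near the share of all genes. Cdk2 had the largest change (-0.65, adjusted p 0.00212). Of 25 DNA repair genes 11 fell and 2 rose, with the exonuclease gene tos at -0.59 and Ku80, of end joining, at 0.36. In mock cells 5 condensin genes fell and 0 rose (median -0.66), and 22 mitosis genes fell and 0 rose (median -0.33). The mock counts were 7 and 1 for cyclin, Cdk and E2F genes and 11 and 3 for DNA repair genes. Of all genes 21.4% fell and 15.2% rose in mock cells.

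Of the chromatin regulators called, nearly all fell, beside 15.7% of all genes that fell and 12.2% that rose. Of 24 trithorax group genes 11 fell and 1 rose (median -0.17), with kismet (kis), a chromatin remodeller, at 11.41 to 12.11 on the later arrays, against 12.30 to 12.499 at day 3 (change -0.56, adjusted p 0.0294). Of 19 Polycomb group genes 7 fell and 0 rose (median -0.17), with Asx at -0.49, Jarid2 at -0.40 and Su(z)12 at -0.30. Of 15 insulator genes 5 fell and 0 rose, with su(Hw) at -0.36 and Cp190 at -0.31. Mock cells had the larger changes in each list, with medians of -0.47, -0.41 and -0.27. Some lists were nearly still. None of 29 ribosomal protein genes and none of 28 proteasome genes was called, with changes between -0.08 and 0.06 and between -0.16 and 0.11. Of 69 mitochondrial ribosomal protein genes, 2 rose and 1 fell.

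**Figure D2:**
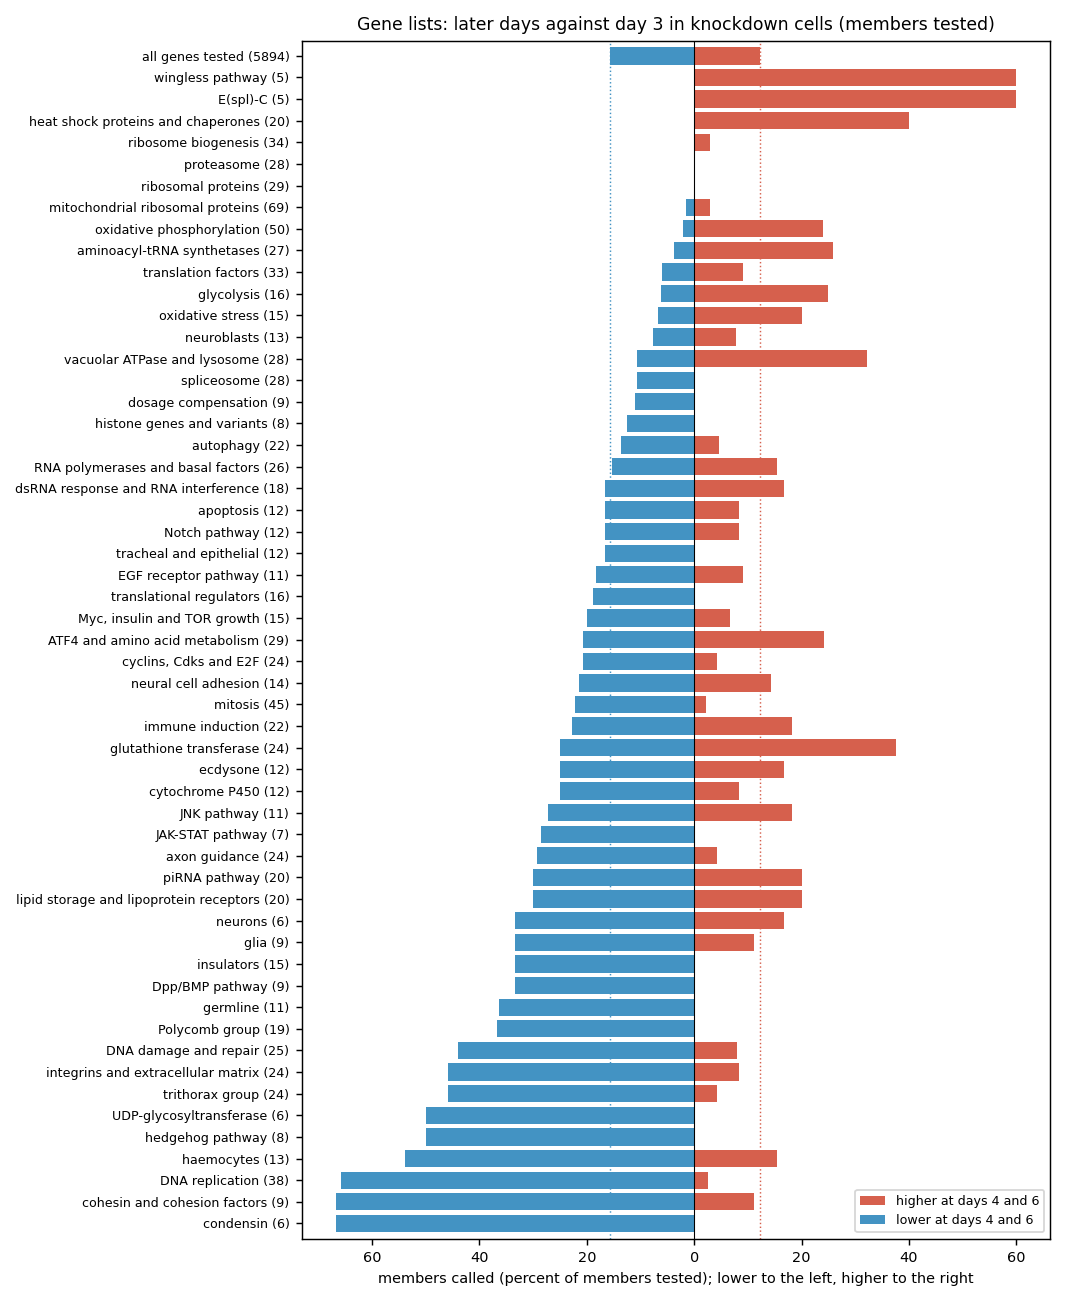
Each row is a gene list with its number of tested members in brackets. Bars give the percent of those members that were higher (right) or lower (left) at days 4 and 6 than at day 3 in knockdown cells, called by limma at an adjusted p of at most 0.1, and dotted lines mark all 5894 genes (12.2% higher, 15.7% lower). Condensin, cohesin and DNA replication genes have the longest bars to the left, and ribosomal protein and proteasome genes have no bar.

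In the signalling lists, the largest changes included those of Dad and nkd, inhibitors of their own pathways. Of 9 tested Dpp/BMP pathway genes, 3 fell and 0 rose. Dad, the inhibitory Smad that Dpp signalling itself switches on, had 7.48 and 7.40 with Rad21 RNAi and 6.92 and 7.03 with Nipped-B RNAi at days 4 and 6, against 8.92 and 8.82 with Rad21 RNAi and 8.59 and 8.43 with Nipped-B RNAi at day 3 (change -1.48, SE 0.07, adjusted p 3.59e-05), Mad, the Smad that carries the signal, changed by -0.48 and the protease gene tok by -0.98. The 3 of 5 wingless pathway genes called all rose, foremost naked cuticle (nkd), an inhibitor induced by the pathway, at 9.80 to 10.66 on the later arrays, against 8.87 to 8.94 at day 3 (change 1.32, SE 0.19, adjusted p 0.00443). Mock cells gave 0.18 for nkd. In the hedgehog pathway 4 of 8 fell and 0 rose, with the transcription factor gene ci at -0.56 (adjusted p 0.0197). Of 12 Notch pathway genes 2 fell and 1 rose, and of 11 EGF receptor pathway genes 2 fell and 1 rose, the ligand gene spi (0.23). Both of these lists lay near the shares of all genes, of which 15.7% fell and 12.2% rose. In the JNK pathway, with 3 of 11 lower and 2 higher, the TNF ligand gene eiger (egr) had 9.99 and 9.999 with Rad21 RNAi and 9.92 and 10.07 with Nipped-B RNAi at days 4 and 6, against 11.28 and 11.24 with Rad21 RNAi and 11.41 and 11.42 with Nipped-B RNAi at day 3 (change -1.34, SE 0.06, adjusted p 2.58e-05) and changed by -1.31 in mock cells.

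Among ecdysone and growth pathway genes the counts lay near the shares of all genes (12.2% rose and 15.7% fell). ImpL2, a secreted inhibitor of insulin signalling and an ecdysone-inducible gene, had 13.45 and 13.70 with Rad21 RNAi and 14.01 and 13.79 with Nipped-B RNAi at days 4 and 6, against 12.05 and 11.78 with Rad21 RNAi and 12.51 and 12.13 with Nipped-B RNAi at day 3, a rise of 1.62 (SE 0.11, adjusted p 0.000163), beside 1.55 in mock cells. Of the 12 ecdysone genes tested 3 fell and 2 rose, including nvd above and the nuclear receptor gene Hr39 (-0.48). The forkhead factor gene foxo, which insulin signalling restrains, changed by -0.76 (adjusted p 0.0104), and 3 of 15 growth pathway genes fell and 1 rose. Jhbp1, a juvenile hormone binding protein, had 10.66 and 10.31 with Rad21 RNAi and 9.39 and 9.57 with Nipped-B RNAi at days 4 and 6, against 9.55 and 9.75 with Rad21 RNAi and 8.71 and 9.08 with Nipped-B RNAi at day 3, a rise of 0.71 (adjusted p 0.00883), while it was lower later in mock cells, by -2.09.

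Matrix and blood cell genes fell more often than they rose, beside 15.7% of all genes that fell and 12.2% that rose. Of 24 integrin and extracellular matrix genes, 11 fell (45.8%) and 2 rose (8.33%). The shares were 53.8% and 15.4% for haemocyte markers. For immune genes they were 22.7% and 18.2%, nearer to those of all genes. Timp, an inhibitor of metalloproteases, had 2.71 to 3.21 on the later arrays, against 4.38 to 5.49 at day 3 (change -2.03, adjusted p 0.0018, or -0.93 with values under 4 set to 4), and the integrin subunit gene if (inflated) had 2.90 to 3.97 on the later arrays, against 4.87 to 5.88 at day 3 (-1.84, adjusted p 0.00711). Another integrin subunit gene, mew, rose by 0.88 (adjusted p 0.00586), with 7.97 to 9.06 on the later arrays, against 7.14 to 8.22 at day 3. Of 13 haemocyte markers 7 fell and 2 rose: eater fell most, the engulfment receptor gene drpr changed by -0.35 at a level near 14, and the scavenger receptor gene Sr-CI rose by 1.11 from near background (0.25 with values under 4 set to 4). Of 22 immune genes tested 5 fell and 4 rose, with Drs as above and GNBP3, a recognition protein of fungal walls, at -1.03 (adjusted p 0.016, or -0.32 with values under 4 set to 4). Among 24 axon guidance genes 7 fell and 1 rose, the netrin receptor gene frazzled (fra), at 10.84 and 11.22 with Rad21 RNAi and 11.36 and 11.68 with Nipped-B RNAi at days 4 and 6, against 9.76 and 9.66 with Rad21 RNAi and 9.84 and 9.83 with Nipped-B RNAi at day 3 (change 1.5, SE 0.12, adjusted p 0.0004). beat-IIIc and comm, of the same list, changed by -1.45 and -1.27. In mock cells 8 matrix genes fell and 1 rose, and 2 haemocyte markers fell and 3 rose. The mock counts were 5 and 3 for immune genes and 7 and 1 for axon guidance genes, while 21.4% of all genes fell and 15.2% rose there.

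Some metabolic and stress lists held more members that rose than fell, and others the reverse, beside 12.2% of all genes that rose and 15.7% that fell. Of 12 cytochrome P450 genes 1 rose and 3 fell, of 6 UDP-glycosyltransferase genes 0 and 3, of 20 lipid storage and lipoprotein receptor genes 4 and 6, and of 22 autophagy genes 1 and 3. Of 24 glutathione transferase genes, 9 rose and 6 fell. GstO3 had 11.64 to 12.003 on the later arrays, against 10.95 to 11.42 at day 3 (0.65, adjusted p 0.0128), and GstD9 had 9.95 to 10.43 on the later arrays, against 10.90 to 11.08 at day 3 (-0.81, adjusted p 0.00243). Of 50 oxidative phosphorylation genes 12 rose and 1 fell, all increases being at most 0.34, as for SdhB of succinate dehydrogenase (0.34, adjusted p 0.00465). The 1 that fell, UQCR-11 of complex III, changed by -1.27 (adjusted p 0.00595). Of 20 heat shock and chaperone genes 8 rose and 0 fell, led by Hsp26 at 12.77 and 13.27 with Rad21 RNAi and 13.89 and 13.37 with Nipped-B RNAi at days 4 and 6, against 12.503 and 12.43 with Rad21 RNAi and 12.60 and 12.30 with Nipped-B RNAi at day 3 (0.87, SE 0.18, adjusted p 0.0179). Hsf, the heat shock factor gene, rose by 0.43 (adjusted p 0.00757). Of 28 vacuolar ATPase and lysosome genes 9 rose and 3 fell, and of 27 aminoacyl-tRNA synthetase genes 7 rose and 1 fell, with AsnRS at 0.49. In mock cells 12 glutathione transferase genes rose and 1 fell. The mock counts were 12 and 0 for aminoacyl-tRNA synthetases, 13 and 3 for vacuolar ATPase, 11 and 1 for oxidative phosphorylation and 6 and 1 for chaperones. They were 4 and 2 for cytochrome P450, 2 and 2 for UDP-glycosyltransferases, 2 and 6 for lipid storage and 3 and 4 for autophagy. Pepck1, of gluconeogenesis, rose by 1.64 (adjusted p 0.0189), with 8.79 and 9.45 (Rad21) and 11.62 and 10.21 (Nipped-B) later, against 8.26 and 7.74 and 8.82 and 8.67 at day 3. Glutamate dehydrogenase (Gdh) rose by 0.76 (adjusted p 0.000153), against 0.97 in mock cells. Catalase (Cat), which breaks down hydrogen peroxide, changed by -0.52 (adjusted p 0.00379).

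The changes in RNAi cells largely had a counterpart in mock cells, which received no dsRNA at either time. In mock cells 1047 probe sets rose (14.3%) and 1521 fell (20.8%) between day 3 and the later days, on 4 arrays. Across the 7304 probe sets the change in RNAi cells and that in mock cells correlated at 0.727 (Pearson) and 0.748 (Spearman), values across probe sets of separate arrays that share replicate numbers and harvest days. The slope of the RNAi change on the mock change was 0.587, and the median absolute change was 0.143 in RNAi cells and 0.242 in mock cells. The mock change rests on fewer arrays, and a larger spread by itself raises its absolute size and lowers the slope. Of the 1982 probe sets called in RNAi cells, 1354 (68.3%) were called in the same direction in mock cells, which is 52.7% of the 2568 called in mock cells. For 16 probe sets both changes were called with opposite signs.

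**Figure D3:**
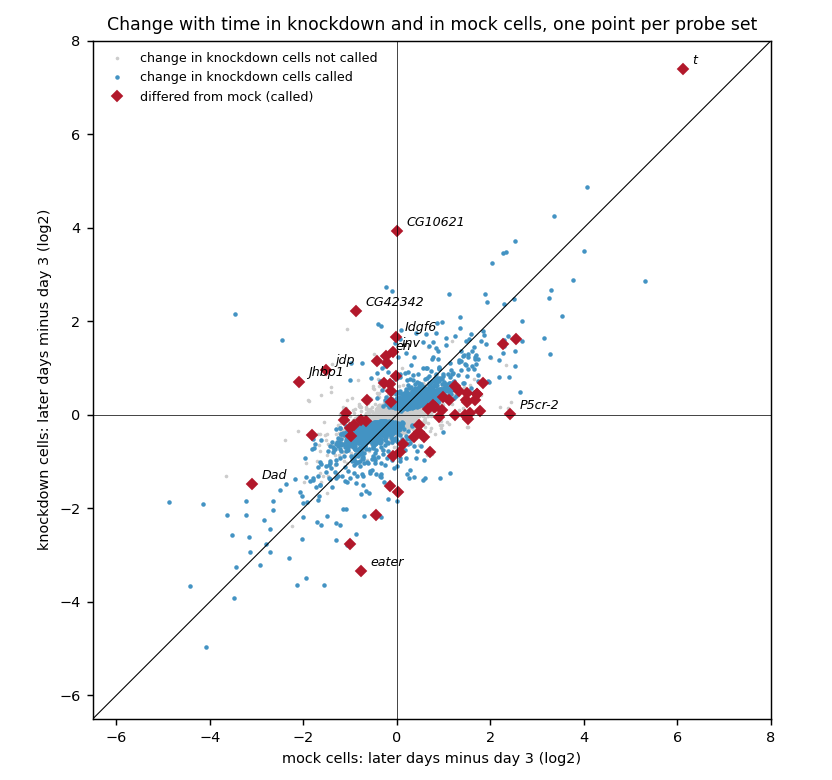
Change between day 3 and the later days in log2 units for 7304 probe sets, knockdown cells (mean of Rad21 and Nipped-B) on the vertical axis and mock cells on the horizontal axis, with a line where both are equal. Blue points were called in knockdown cells, and red diamonds are the 63 probe sets whose change differed between knockdown and mock cells, among them CG10621, CG42342, Jhbp1, en and inv above the line and eater and P5cr-2 below it.

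The difference between the time change of RNAi cells and that of mock cells was called for few probe sets in the fit of 6 means, which leaves out the replicate number. It was more positive in RNAi cells for 25 (0.342%) and more negative for 38 (0.52%), while 915 had an unadjusted p under 0.05 (limma, 12 arrays). With the replicate number as a block, which pairs the arrays, many more were called, 305 and 287. Of the 63 probe sets (0.863%) called without the block, 44 were also called for the change in RNAi cells, 27 had opposite signs in RNAi and mock cells, and 40 changed less in RNAi cells. The counts without the block rested on single arrays. They were 0 and 1 without mock replicate 1 or 2, 656 and 274 without mock replicate 3, and 2 and 1 without mock replicate 4. They were 0 and 0, 0 and 1, 9 and 6, and 10 and 8 without Rad21 replicates 1, 2, 3 and 4, and 7 and 4, 6 and 3, 168 and 194, and 29 and 53 without Nipped-B replicates 1, 2, 3 and 4.

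Among genes whose time change was more positive in RNAi cells, CG10621, described above, differed by 3.92 (SE 0.51, adjusted p 0.0355). It is at background in mock cells and at day 3, and with values under 4 set to 4 the difference was 2.22 and no longer called (adjusted p 0.114). CG42342 had 9.38 and 9.91 with Rad21 RNAi and 7.5 and 8.76 with Nipped-B RNAi at days 4 and 6, against 7.24 and 7.14 with Rad21 RNAi and 6.20 and 6.08 with Nipped-B RNAi at day 3, with 5.13 and 5.70 at days 4 and 6, against 6.03 and 6.54 at day 3 in mock cells, a difference of 3.10 (SE 0.47, adjusted p 0.0444). Jhbp1, whose mock values were 4.95 and 3.88 at days 4 and 6, against 6.48 and 6.54 at day 3, differed by 2.80 (adjusted p 0.0355). The probe set of jdp differed by 2.49 (adjusted p 0.0355), with a change of 0.97 in RNAi cells and -1.52 in mock cells. A different jdp probe set changed by 0.56 in RNAi cells (adjusted p 0.137). Dad fell in both but less in RNAi cells, since mock cells had 5.48 and 4.88 at days 4 and 6, against 8.23 and 8.32 at day 3, a difference of 1.62 (adjusted p 0.0355). The differences for en and inv were 1.5 and 1.43 (adjusted p 0.0969 and 0.0399), that for CG6040 was 1.57 and that for t was 1.28 (adjusted p 0.0969 and 0.0969). E(spl)m3-HLH differed by 5.62 (SE 1.33), more than any gene above, with an adjusted p of 0.128, or 0.0696 with the replicate block. E(spl)m7-HLH differed by 4.05 (adjusted p 0.123, or 0.0357 with the block) and E(spl)mbeta-HLH by 1.86 (0.139, or 0.047). The block called neither E(spl)mdelta-HLH nor E(spl)malpha-BFM (0.106 and 0.174).

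Among genes whose time change was more negative in RNAi cells, eater differed by -2.58 (SE 0.51, adjusted p 0.0969). All 4 of its later RNAi values were under 4, and with values under 4 set to 4 the difference was -1.56 and no longer called (adjusted p 0.161). P5cr-2, a reductase of proline synthesis, changed by 0.01 in RNAi cells and by 2.42 in mock cells, a difference of -2.41 (adjusted p 0.0473). CG13795 had 7.08 and 7.10 with Rad21 RNAi and 7.62 and 7.54 with Nipped-B RNAi at days 4 and 6, against 8.82 and 8.45 with Rad21 RNAi and 9.54 and 9.17 with Nipped-B RNAi at day 3, while mock cells stayed level at 9.98 and 9.97 at days 4 and 6, against 10.06 and 9.84 at day 3, a difference of -1.68 (SE 0.19, adjusted p 0.0355). Septin4, CG18249, CG3251, CG34232 and LKRSDH, an enzyme of lysine breakdown, differed by -1.71, -1.77, -1.62, -1.53 and -1.52. In the lists, the cytochrome P450 gene Cyp4e2 and GstD9 fell in RNAi cells with values of 0.48 and 0.07 in mock cells, differences of -0.84 and -0.88 (adjusted p 0.0444 and 0.0528).

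Few probe sets separated the targets in their change over time. In a fit of 4 means over the 8 RNAi arrays, the Rad21 change alone was called for 354 probe sets higher (4.85%) and 450 lower (6.16%). The Nipped-B change alone was called for 605 (8.28%) and 680 (9.31%). Across probe sets the Rad21 and Nipped-B changes correlated at 0.791 (Pearson) and 0.603 (Spearman). The test of the difference between the targets called 0 probe sets for which Rad21 was more positive and 5 (0.0685%) for which it was more negative, with 681 at an unadjusted p under 0.05. With the replicate number as a block the counts were 43 and 40. None was called without any 1 of the 4 Rad21 arrays or without Nipped-B replicate 1 or 2, and 4 and 5 were called without Nipped-B replicates 3 and 4. Of the 5, 3 name a single gene, of which Idgf6 and Tsp5D lost the call without any 1 of the 8 arrays and CG32182 without any 1 of 6. The chitinase-like growth factor gene Idgf6 had 3.62 and 3.66 with Rad21 RNAi and 6.32 and 6.67 with Nipped-B RNAi at days 4 and 6, against 3.56 and 3.54 with Rad21 RNAi and 3.53 and 2.97 with Nipped-B RNAi at day 3. It was thus seen above background only in later Nipped-B cells, since mock arrays were at 3.58 and 3.52 later and 3.56 and 3.59 at day 3, and the targets differed by -3.15 (SE 0.32, adjusted p 0.0662). CG32182 had 9.39 and 9.38 later and 9.77 and 9.81 at day 3 with Rad21 RNAi, and 9.81 and 9.77 later and 9.14 and 9.12 at day 3 with Nipped-B RNAi, a difference of -1.06 (SE 0.10, adjusted p 0.0495). The tetraspanin gene Tsp5D had 12.21 and 12.26 later and 11.77 and 11.71 at day 3 with Rad21 RNAi, and 12.97 or more on both later arrays and 11.58 and 11.40 at day 3 with Nipped-B RNAi, so that it was higher later with either target. That difference was -1.01 (SE 0.11, adjusted p 0.0712).

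Days 4 and 6 were not alike, although each had 1 array per target. Each day is also a single replicate number, and same-numbered arrays deviated together. The day thus cannot be told apart from anything else that such arrays share. The p-values treat the arrays of both targets as separate. Between them 543 probe sets (7.43%) were higher at day 6 and 253 (3.46%) were lower, in a fit with the 3 days as levels. Without Rad21 replicate 1 or 2 or Nipped-B replicate 1, 104, 120 and 145 were lower. Of the 543, 469 had a lower mean at day 4 than at day 3. This is a description only, because the day 4 arrays that chose them enter it too, and 1458 of all 7304 probe sets were called lower at day 4 than at day 3. The median of the 543 was -0.52 at day 4 and 0.09 at day 6, both relative to day 3. In mock cells 498 of the 543 were also higher at day 6 than at day 4, compared with 37.1% of all tested probe sets, with a median of 0.64 beside 0.68 in RNAi cells. Of the 253 that were lower at day 6, 190 were higher at day 4 than at day 3, chosen in the same way, and the median day 6 minus day 4 difference was -0.37 in RNAi cells and -0.32 in mock cells.

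Genes higher at day 6 than at day 4 included those of RNA-binding proteins and of axon guidance. Muc14A, a mucin gene, had 3.73 and 7.55 with Rad21 RNAi and 3.79 and 7.55 with Nipped-B RNAi at days 4 and 6, and between 7.83 and 8.32 on the day 3 arrays. It was at background on day 4 for both targets and in mock cells too (3.67 and 6.66 at days 4 and 6), and its day 6 minus day 4 difference was 3.79 (SE 0.14, adjusted p 8.91e-05). Unr, an RNA-binding protein of dosage compensation, differed by 2.99 (adjusted p 0.0071), the RNA-binding protein genes Imp and Syp by 2.27 and 2.16 (adjusted p 0.0156 and 0.00291), and the guidance cue Sema1a by 2.25, having been -2.57 below day 3 at day 4. A probe set of lola, a transcription factor gene with many isoforms, differed by 2.33 (adjusted p 0.00464), 1 of 13 tested lola probe sets. The aquaporin gene Prip differed by 2.17. Prip was -1.07 at day 4 relative to day 3, with later days together at 0.02.

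**Figure D4:**
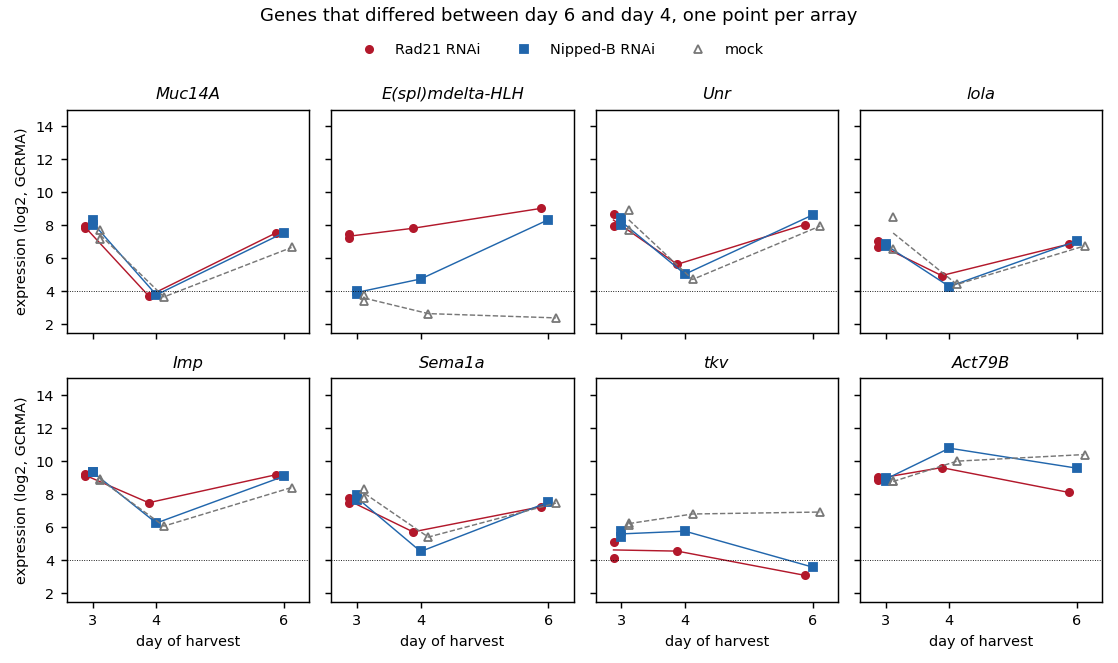
Log2 expression (vertical axis) by day of harvest (horizontal axis) of 8 genes called between day 6 and day 4, 1 point per array for Rad21 RNAi, Nipped-B RNAi and mock cells, with lines through the day 3 mean and the arrays of days 4 and 6. Muc14A, Unr, lola, Imp and Sema1a are low on the day 4 arrays of all 3 treatments, E(spl)mdelta-HLH is highest at day 6 in RNAi cells, and tkv and Act79B are lower at day 6 than at day 4 in RNAi cells.

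By lists, 9 of 24 axon guidance genes and 8 of 16 translational regulators were higher at day 6 than at day 4, beside 5.96% of all genes (3.78% were lower). For neuron markers it was 5 of 6, for neuroblast markers 5 of 13 and for germline genes 4 of 11. The genes higher at day 6 were also long. Their median span in the RefSeq gene models was 13.3 kb, over 369 of the 372 genes with any probe set higher at day 6 (the 5.96% count 1 probe set a gene), whereas it was 1.92 kb for genes lower at day 6 and 2.76 kb for all 5881 tested genes with a span. Genes that rose from day 3 to the later days as a whole had a median span of 2.08 kb, and those that fell had 4.66 kb. All 5 tested E(spl)-C members were higher at day 6 than at day 4, but E(spl)malpha-BFM was tested only through its day 6 arrays. It had 5.29 (Rad21) and 4.77 (Nipped-B) there and was under 4 on every other RNAi array, so its difference is a description only. The differences were 2.39 for E(spl)mdelta-HLH (adjusted p 0.067, a call lost without Rad21 replicate 2), 2.02 for E(spl)m3-HLH (0.0197), 1.93 for E(spl)malpha-BFM (0.00583), 1.93 for E(spl)m7-HLH (0.0527) and 0.99 for E(spl)mbeta-HLH (0.0193). In mock cells E(spl)m3-HLH stood lower at day 6 than at day 4 (6.39 and 2.99 at days 4 and 6). The values for en and inv were 0.30 and 0.25 (adjusted p 0.529 and 0.29).

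Genes lower at day 6 than at day 4 were led by the Dpp receptor gene tkv (-1.82, adjusted p 0.0262), CG13046 (-1.82) and CG17124 (-1.69). Act79B, a muscle actin, differed by -1.36 (adjusted p 0.0817), a call lost without Nipped-B replicate 1 or Rad21 replicate 1. The organic cation transporter gene Orct, Esyt2, CG10962 and MFS14 differed by -1.30, -1.29, -1.24 and -1.23.

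Genes that rose were unevenly spread over the chromosomes, a pattern sought after the values were seen. Among all tested genes 12.2% rose and 15.7% fell. Of 1057 tested genes on arm 2L, 18.1% rose, against 9.92% on 3L, 10.3% on X, 11.1% on 2R and 172 of 1433 genes on 3R. When each arm was divided in gene order into 58 blocks in all of about 100 tested genes, the last 3 of 11 blocks of 2L had the highest shares of genes that rose. There 99 of 288 genes rose (34.4%) and 23 fell (7.99%), with 25.0%, 45.8% and 32.3% rising in blocks 9, 10 and 11. In the other 55 blocks the share ranged between 2.91% and 22.3%. The median change of the 288 genes was 0.12 with Rad21 RNAi and 0.10 with Nipped-B RNAi, and it was -0.002 in mock cells. The median difference from mock was 0.10 there, and 3 of the other 55 blocks had as large a difference. These were blocks 7 and 8 of 2L (0.16 and 0.12), which adjoin the region, and block 12 of 3R (0.11). A difference of this size was thus not confined to the last 3 blocks of 2L. The genes outside 2L had a median difference of 0.03. On the same scale of change, the 4837 genes outside 2L had -0.03 in RNAi cells and -0.07 in mock cells. As median deviation from each gene's mean over the 12 arrays, the 288 genes stood at 0.09 and 0.06 on the Rad21 arrays and 0.07 and 0.05 on the Nipped-B arrays of days 4 and 6, against -0.05 and -0.02 and -0.04 and -0.06 at day 3. Mock arrays stood at 0.04 and -0.08 at days 4 and 6, against -0.06 and 0.0 at day 3. Relative to the median of all tested probe sets on the same array, the 288 genes stood at 0.10 and 0.09 on the Rad21 arrays of days 4 and 6, against -0.08 and -0.04 at day 3, at 0.06 and 0.06 on the Nipped-B arrays, against -0.07 and -0.06, and at 0.06 and 0.01 on the mock arrays, against -0.06 and -0.02. The later arrays were thus the higher ones in mock cells too, by less. On chromosome 4, 1 of 37 tested genes rose (2.7%) and 6 fell (16.2%), with a median of -0.26. The share that fell there was near that of all genes (15.7%).

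**Figure D5:**
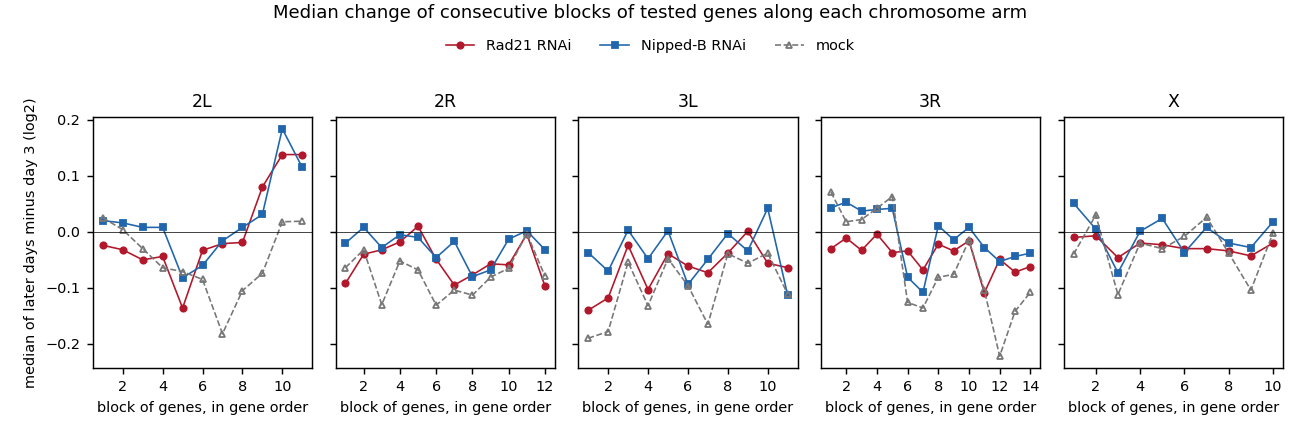
Median change between day 3 and the later days in log2 units (vertical axis) of consecutive blocks of about 100 tested genes in gene order (horizontal axis, block number) along the arms 2L, 2R, 3L, 3R and X, for Rad21 RNAi, Nipped-B RNAi and mock cells. At the end of 2L the Rad21 and Nipped-B medians reach 0.14 and 0.18 in block 10, while the mock median there is 0.02.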

How the data were processed

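The 12 samples of BG3 cells (Rad21 RNAi, Nipped-B RNAi and mock) were hybridised to Affymetrix Drosophila Genome 2.0 arrays, 1 array each. The authors computed the deposited log2 expression values from the probe intensities with GCRMA, which corrects background by probe sequence and makes the arrays' distributions equal. The sources used here give no GCRMA version. Precision is limited by the number of arrays, since arrays have no read depth. Of 18952 probe sets, 183 controls were left out. Genes were named through the array annotation and a RefSeq gene table of Release 6 (13543 of 13646 probe sets of 1 gene matched), which also gave gene order and spans. The probe set of Rad21 was not analysed here.

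Probe sets at log2 4 or above on at least 2 of the 8 RNAi arrays were fitted with limma 3.58.1 in R 4.3.3 (lmFit, then eBayes with a variance trend), and p-values were adjusted by Benjamini-Hochberg over all 7304. An adjusted p of at most 0.1, the study's threshold, was called, two-sided. The fits were later days against day 3 with target as a block, the difference of that change from mock (6 means, 12 arrays), the difference between targets (4 means), and day 6 against day 4 (3 days as levels). The mock change was a contrast in the fit of 6 means, and the changes of single targets were contrasts in that of 4 means. Summaries and plots were made in Python 3.11.15 (numpy 2.4.6, pandas 2.3.3, matplotlib 3.10.9). Scripts were tested on simulated data.

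Same-numbered arrays of both targets deviated together from their group means (correlation across probe sets 0.364 for replicates 1 and 2 and 0.668 for replicates 3 and 4, and 0.364 to 0.508 and 0.54 to 0.668 with mock arrays included), so the numbers pair the arrays; at the later days the number is also the day. Alternatives were the replicate number as a block, no filter or a limit of log2 5, no variance trend, centred arrays, values under 4 set to 4, a threshold of 0.05, single targets or days, other sets of means, and leaving out each array in turn.

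The 8 arrays, the 60 gene lists and the tests were chosen with earlier results of these data known. Lists are described by counts and medians, and a gene with several probe sets by the one of highest mean. Named genes are the 20 largest increases and 20 largest decreases among called probe sets of 1 gene whose later and day 3 arrays did not overlap, the 8 largest each way of the other 3 comparisons among those called, all tested members of the E(spl)-C and of invected-engrailed, and up to 4 members of each other list with the largest changes, called ones first.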

Additional observations from a re-analysis of the deposited data

Results flagged for a closer look

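Change over time differed between RNAi and mock cells, by the test of that difference, for 20 of the named genes. Where the RNAi change was the more positive one, the differences in log2 units were 3.92 for CG10621, 3.10 for CG42342, 2.80 for Jhbp1, 2.49 for jdp, 1.70 for Idgf6, 1.62 for Dad, 1.57 for CG6040, 1.5 for en, 1.43 for inv and 1.28 for t. Where it was the more negative one, they were -2.58 for eater, -2.41 for P5cr-2, -1.77 for CG18249, -1.71 for Septin4, -1.68 for CG13795, -1.62 for CG3251, -1.53 for CG34232, -1.52 for LKRSDH, -0.88 for GstD9 and -0.84 for Cyp4e2. Their adjusted p-values (limma) lay between 0.0355 and 0.0969. Each of the 20 calls was lost when certain single arrays were left out, 4 to 10 of the 12. Over all probe sets, 0 were more positive and 1 was more negative without mock replicate 1 or 2, and 0 and 0 without Rad21 replicate 1. With values under log2 4 set to 4, the differences of CG10621 and eater were 2.22 and -1.56 and lost the call (adjusted p 0.114 and 0.161), and the other 18 kept it. That floor also gained calls, among them wit at -2.77 and AdamTS-A at 1.52 (adjusted p 0.0077 and 0.0117).

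Change over time differed between Rad21 and Nipped-B RNAi, by the test of that difference, for 3 named genes. The Rad21 change minus the Nipped-B change was -3.15 for Idgf6, -1.06 for CG32182 and -1.01 for Tsp5D (limma adjusted p 0.0662, 0.0495 and 0.0712). The calls of Idgf6 and Tsp5D were lost without any 1 of the 8 arrays, and that of CG32182 without any 1 of 6. No group holds more than 2 arrays, so no single array could be set apart within its group.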

How the results depend on the processing

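Of 255 named values for the later days against day 3, 4715 of 5603 alternative values kept direction and call, 820 lost the call, 67 gained it and 1 reversed: Prip changed by -1.07 between day 3 and day 4 alone (limma adjusted p 0.0882). For the difference from mock 175 of 303 alternative values kept the call and 128 lost it, for the difference between targets 18 of 45 kept it and 27 lost it, and for day 6 against day 4 168 of 176 kept it and 8 lost it. The counts of 869 higher and 1113 lower became 568 and 706 at a threshold of 0.05 and 533 and 661 with no filter. For the Rad21 change alone they were 354 and 450, and for the Nipped-B change alone 605 and 680. They were 623 and 798 with the replicate number as a random block, and 348 and 384 with both targets averaged within each replicate number. No filter means more probe sets tested. The changes of single targets contrast fewer arrays, though their spread came from all 8 RNAi arrays, and averages leave fewer values. Leaving out 1 array gave 508 to 955 higher and 664 to 1321 lower. Without 1 array of the later days, the remaining one stands for its class and is assumed to vary like the others. For the difference from mock, the counts of 25 and 38 became 13 and 12 at 0.05, 20 and 24 with a limit of log2 5, 32 and 61 with centred arrays and 305 and 287 with the replicate block, and 0 to 656 and 0 to 274 without 1 array. For the difference between targets, 0 and 5 became 0 and 3 at 0.05, 0 and 2 with a limit of log2 5, 1 and 8 with no filter and 43 and 40 with the replicate block, and 0 and 0 to 5 without 1 array. For day 6 against day 4, 543 and 253 became 316 and 83 at 0.05, 406 and 97 with no filter and 788 and 676 in a fit over all 12 arrays, and 396 to 557 and 104 to 208 without 1 day 3 array. The replicate block could not be fitted there, because the number is the day. The causes were not tested. Probe sets under log2 4 have no reliable order, so the size of a change into or out of that range is uncertain.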

Other observations

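A few genes crossed the detection limit between the times, a set picked after the values were seen. Among probe sets of 1 gene, 3 were under log2 4 on all day 3 arrays of RNAi cells and at 5 or more on all later ones, namely pdm2, CG10621 and t, and 8 were under 4 later and at 5 or more at day 3, namely CG32115, Trim9, eater, CG18404, CG18249, Pkc53E, CG9338 and Pgant2. Mock cells passed the same limits for 2 of the 3 (pdm2 and t) and for 2 of the 8 (Trim9 and CG18404). Missing these limits is not a difference from mock. Of the 8, only eater and CG18249 were called in that test, and eater lost the call with values under 4 set to 4. Trim9 had 2.51 and 2.43 with Rad21 RNAi and 2.23 and 2.22 with Nipped-B RNAi at days 4 and 6, against 5.38 and 5.70 with Rad21 RNAi and 5.87 and 5.44 with Nipped-B RNAi at day 3, with 2.22 and 2.24 at days 4 and 6, against 5.97 and 5.37 at day 3 in mock cells. Pgant2 had 6.17 and 4.20 in mock cells at the later days, where RNAi cells had 2.98 or less. Its mock values at day 3 were 7.22 and 7.015, and its difference from mock was not called (-1.55, limma adjusted p 0.337).

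Germline genes that BG3 cells express also fell in part. Of 11 germline genes tested, 4 fell and 0 rose, beside 15.7% and 12.2% of all genes. The piRNA-binding protein gene aub had 5.25 and 6.18 with Rad21 RNAi and 5.68 and 6.43 with Nipped-B RNAi at days 4 and 6, against 7.70 and 7.28 with Rad21 RNAi and 8.09 and 7.82 with Nipped-B RNAi at day 3 (change -1.84, SE 0.24, limma adjusted p 0.00309), while mock cells had 8.66 and 9.29 at days 4 and 6, against 9.10 and 8.84 at day 3. The germline transcription factor gene ovo changed by -1.31 and the germline gap junction gene zpg by -0.87. In the piRNA list 6 of 20 genes fell and 4 rose, with tej at -1.39 and the endonuclease gene zuc at 0.78 (adjusted p 0.000866 and 0.0248). Of 3 muscle genes tested, sls, the titin-like gene of the sarcomere, had 4.03 and 3.60 with Rad21 RNAi and 3.36 and 3.28 with Nipped-B RNAi at days 4 and 6, against 6.05 and 5.85 with Rad21 RNAi and 4.30 and 5.26 with Nipped-B RNAi at day 3 (change -1.80, adjusted p 0.00366), and rols, a myoblast fusion gene, changed by -0.93. Glia markers fell in 3 and rose in 1 of 9.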
